A study of Mus musculus with 6 samples.

Results

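The intergenic NOVA clusters described here were CLIP clusters that overlapped no gene of the GENCODE vM1 annotation on their own strand and lay more than 10 kb from both ends of every gene of that strand. Of the 46501 clusters kept from the NOVA1 and NOVA2 lists, 3188 met this rule, 504 of 9939 in the NOVA1 list (5.07%, 95% Wilson interval 4.66 to 5.52) and 2684 of 36562 in the NOVA2 list (7.34%, 7.08 to 7.61). The clusters came from HITS-CLIP of wild-type CD1 mouse cortex at embryonic day 18.5, with 3 libraries for NOVA1 and 3 for NOVA2. In HITS-CLIP, RNA is crosslinked to its protein by ultraviolet light in intact tissue, recovered with an antibody and sequenced, and overlapping reads (tags) form a cluster. Each list gave the tags per cluster pooled over the libraries of its protein, with 10 tags as the lowest value. Values of single libraries were not part of the lists, so intervals cover counting error only and the replicate spread behind a difference is not known here. The intervals also treat clusters as independent, although many lay close together, so they can be too narrow. Clusters on the mitochondrial genome and in a 20 kb window of chromosome 17 were left out, 49 from the NOVA1 list and 29 from the NOVA2 list.

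The NOVA proteins are KH-domain splicing factors of neurons that bind YCAY (Y is C or U) in RNA, act on pre-mRNA in the nucleus, and also bind 3' UTRs. Long neuronal genes often have alternative first exons far upstream of the start that an older annotation gives, so position between annotated genes does not by itself mean that a site lies outside a transcript. Intergenic space also holds repeated sequence, to which short reads of other loci can be assigned.

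The sequences below come from named intergenic clusters of many tags, picked after their motif counts were known to show the range from motif-rich to motif-poor, and are given for the NCBIM37 (mm9) genome, 5' to 3' on the cluster strand, with YCAY in capitals (T stands for U). Each is the stretch of at most 150 nt of the cluster with the most YCAY. The first 4 come from NOVA2 clusters, 3 of them among the 5 highest in tags and the last among the 5 highest without overlap in the NOVA1 list. The other 3 come from NOVA1 clusters, 2 among the 5 highest in tags and the last the highest without overlap in the NOVA2 list.
Usp25 to 2810055G20Rik, 1254 NOVA2 tags, chr16:77264161-77264310 (+): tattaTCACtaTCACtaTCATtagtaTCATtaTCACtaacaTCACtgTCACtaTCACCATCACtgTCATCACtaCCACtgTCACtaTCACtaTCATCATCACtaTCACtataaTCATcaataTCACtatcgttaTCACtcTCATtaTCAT
Rbfox1 upstream cluster, 636 NOVA2 tags, chr16:5949317-5949466 (+): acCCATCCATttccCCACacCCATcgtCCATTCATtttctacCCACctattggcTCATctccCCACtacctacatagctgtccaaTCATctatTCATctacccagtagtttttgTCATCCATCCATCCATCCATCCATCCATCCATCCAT
Upstream of Mir181a-1, 783 NOVA2 tags, chr1:139847571-139847720 (+): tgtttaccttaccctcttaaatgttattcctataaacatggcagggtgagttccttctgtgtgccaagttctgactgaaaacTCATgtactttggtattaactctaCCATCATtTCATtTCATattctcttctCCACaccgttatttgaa
Robo2 upstream cluster, 146 NOVA2 tags, chr16:74711917-74712066 (-): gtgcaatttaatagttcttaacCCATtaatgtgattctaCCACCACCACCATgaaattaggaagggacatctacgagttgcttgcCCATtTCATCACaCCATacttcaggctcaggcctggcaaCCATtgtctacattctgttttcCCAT
Plcd1 to Cmc1, 974 NOVA1 tags, chr9:118584067-118584164 (-): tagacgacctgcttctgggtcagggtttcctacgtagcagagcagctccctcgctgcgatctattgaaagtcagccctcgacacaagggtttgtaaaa
E030025P04Rik to Prkca, 971 NOVA1 tags, chr11:108873219-108873368 (-): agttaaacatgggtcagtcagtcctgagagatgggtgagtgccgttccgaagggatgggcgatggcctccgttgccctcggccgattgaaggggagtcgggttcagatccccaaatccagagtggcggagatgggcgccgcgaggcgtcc
Myom2 to Mcph1, 333 NOVA1 tags, chr8:15519859-15520007 (+): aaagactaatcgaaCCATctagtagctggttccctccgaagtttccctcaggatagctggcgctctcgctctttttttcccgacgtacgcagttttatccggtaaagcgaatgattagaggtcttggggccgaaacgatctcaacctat
The stretch between Usp25 and 2810055G20Rik held 24 YCAY in 150 nt, the Rbfox1 stretch held 20, the Robo2 stretch 11 and the Mir181a-1 stretch 6. In the 3 NOVA1 stretches the number was 0, 0 and 1, the lowest among the named NOVA1 clusters, and in the stretches of the other 7 named NOVA1 clusters it was 1 to 3.

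Intergenic clusters had a median of 16 tags (quartiles 12 and 24) in the NOVA1 list and 18 (12 and 32.25) in the NOVA2 list, and median widths of 111.5 and 109 nt. The intergenic clusters were crowded into a small number of gaps between genes. A gap is the space between neighbouring protein-coding genes of the same strand. Spaces with the same names of flanking genes were counted as 1 gap. The 3188 clusters lay in 511 gaps, of which 281 held 1 cluster and 13 held 50 or more. These 13 gaps contained 50.03% of all intergenic clusters, and the 10 gaps with the most contained 1394 clusters (43.7%). Chromosome 16 alone carried 141 NOVA1 clusters (28.0% of the intergenic ones) and 791 NOVA2 clusters (29.5%). On this chromosome intergenic clusters made up 25.8% of all NOVA1 and 33.8% of all NOVA2 clusters.

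The 4 gaps with the most clusters were all on chromosome 16. The gap from Lipi to Robo2 held 263 clusters, 20 of NOVA1 and 243 of NOVA2. Robo2 encodes a receptor for Slit proteins in axon guidance. The clusters lay between 31.7 and 998 kb upstream of the 5' end that vM1 gives for Robo2. The gap from Alg1 to Rbfox1 held 258 clusters (39 of NOVA1 and 219 of NOVA2), 12.3 to 1301 kb upstream of Rbfox1, which encodes a neuronal splicing regulator. The gap from Igsf11 to Lsamp held 200 clusters (43 and 157), 48.1 to 1537 kb upstream of Lsamp, a cell adhesion gene of the IgLON family. The gap from Gbe1 to Robo1 held 143 clusters (30 and 113), 51.4 to 631 kb upstream of Robo1, the paralog of Robo2. In each of these gaps the clusters were spread over 579 kb or more. That they share the strand of the gene downstream follows from the definition of a gap.

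**Figure D1:**
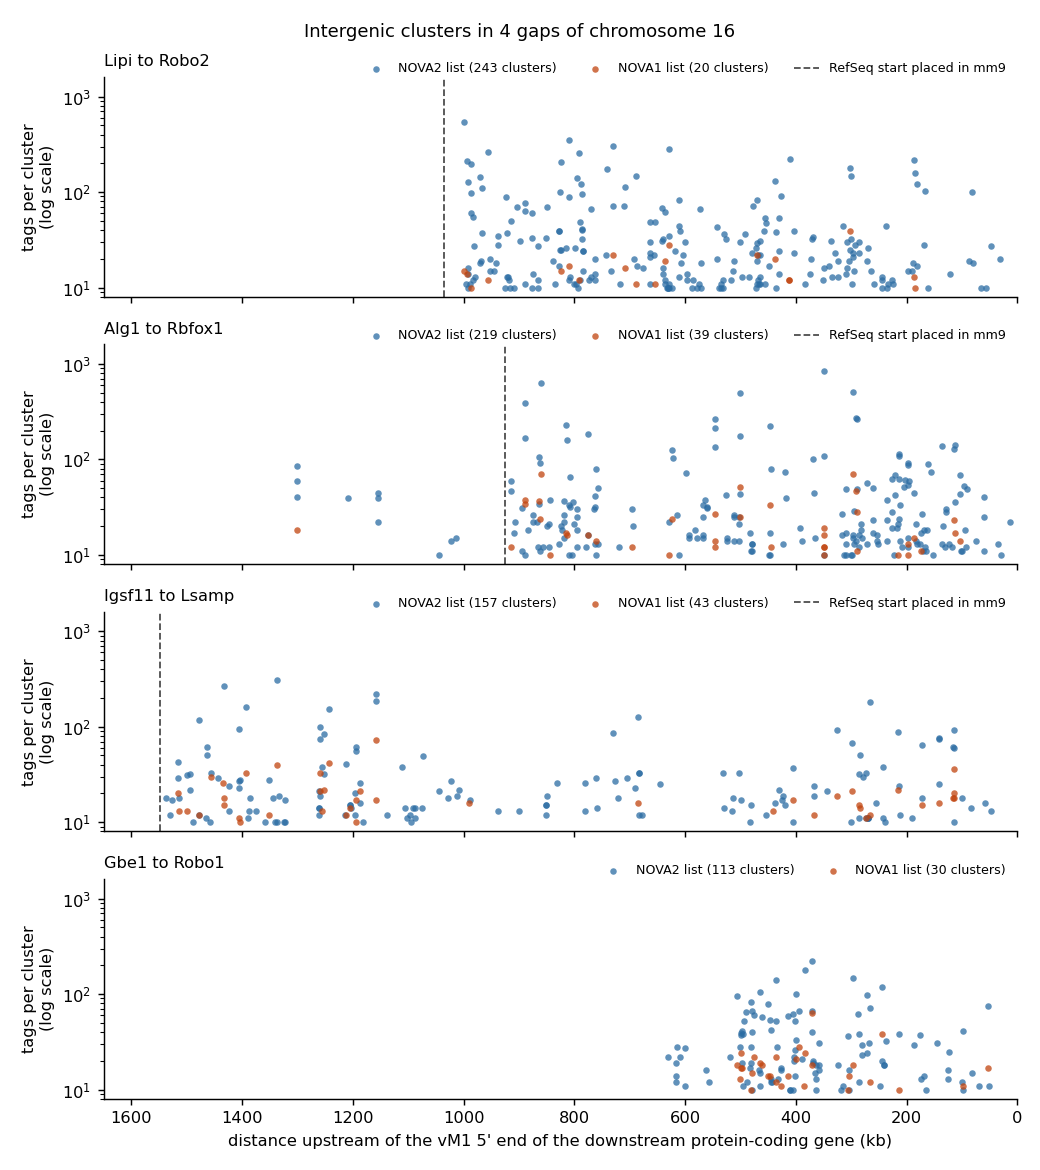
Tags per cluster (log scale) of intergenic NOVA1 and NOVA2 clusters against the distance in kb upstream of the vM1 5' end of the downstream protein-coding gene, for 4 gaps of chromosome 16. Dashed lines mark the farthest RefSeq start of Robo2, Rbfox1 and Lsamp placed in mm9, at 1035, 924 and 1548 kb, and 0, 11 and 0 clusters of these gaps lie beyond them.

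The other 9 gaps with 50 or more clusters lay on other chromosomes. On chromosome 10, 140 clusters (25 of NOVA1 and 115 of NOVA2) lay between separate vM1 genes that all carry the name Nkain2, which encodes a protein that interacts with the sodium pump. Because of the shared name, spaces with 102 and 38 of these clusters were counted as a single gap. Upstream of Nav3, a neuron navigator gene, 94 clusters (19 and 75) lay within 414 kb. Upstream of Dpp10, which encodes an auxiliary subunit of potassium channels, there were 78 (4 and 74), and upstream of Ralyl, an RNA-binding protein gene, there were 72 (8 and 64). Upstream of Odz3, a teneurin gene, 67 clusters (8 and 59) were spread over 2148 kb. The gap from Slitrk1, a gene for a synaptic adhesion protein, to Rpl27a-ps2 held 73 clusters (16 and 57), which began 17.9 kb beyond the 3' end of Slitrk1. A further 73 clusters (11 and 62) lay between Otol1 and Serpini1, 1979 kb or more from either gene. The gap from Snrpn to C230091D08Rik on chromosome 7, a region of imprinted small nucleolar RNA genes, held 68 clusters (23 and 45), and the gap from Wrn to Gm5908 on chromosome 8 held 66 (7 and 59).

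**Figure D2:**
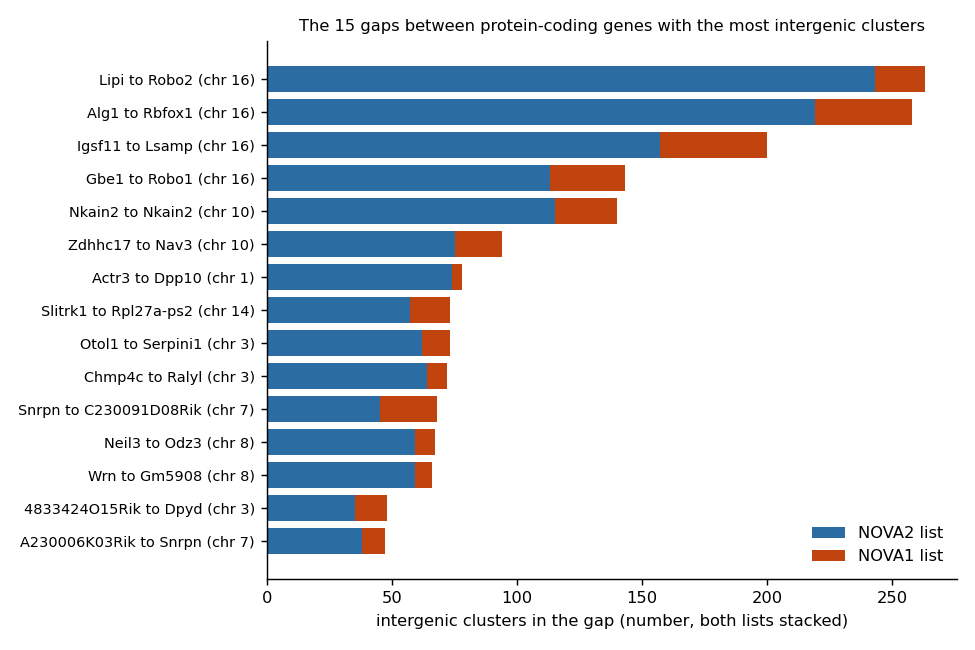
Number of intergenic clusters in the 15 gaps between neighbouring protein-coding genes of 1 strand that hold the most, with the NOVA2 and NOVA1 clusters stacked. Spaces with the same names of flanking genes, as between the Nkain2 genes, are counted as 1 gap. The bars fall from 263 clusters in the gap before Robo2 to 47 in the gap from A230006K03Rik to Snrpn.

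Within the gaps, the clusters formed runs. Overlapping clusters of both lists were merged into 2734 sites, and sites of the same strand at most 10 kb apart were joined. This gave 688 single sites, 189 pairs and 247 runs of 3 or more sites. The runs held 350 of 504 NOVA1 clusters (69.4%, 65.3 to 73.3) and 1657 of 2684 NOVA2 clusters (61.7%, 59.9 to 63.6). The shares of all clusters in runs built from the whole lists were 70.1% for NOVA1 and 62.8% for NOVA2, although those runs could also be joined through clusters in and near genes. Of the runs, 45 had 10 or more sites and 13 had 20 or more. Of the 247 runs, 136 held clusters of both proteins and 1 held NOVA1 clusters alone.

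The run with the most sites lay at chr16:6574129-6657034 on the plus strand, 152 kb upstream of Rbfox1, with 40 sites in 82.9 kb, 5 NOVA1 clusters with 59 tags and 41 NOVA2 clusters with 1541 tags. A second Rbfox1 run at chr16:6492449-6557005 had 31 sites, and one more at chr16:5914806-5965566 had 20, with 1627 and 1686 NOVA2 tags. All 3 runs held fewer NOVA1 tags, 59, 156 and 213. Upstream of Robo2, on the minus strand, there were runs of 32 sites at chr16:75196576-75263126 and at chr16:74983442-75054321. The first had 1988 NOVA2 and 44 NOVA1 tags, the highest sum of any run. A run of 20 sites at chr16:75378120-75410680, farthest from Robo2, held 1735 NOVA2 and 39 NOVA1 tags. Further Robo2 runs of 24 sites each lay at chr16:74696977-74762873 and chr16:74860807-74913344, each with 1 NOVA1 cluster. The longest run spanned 93.2 kb at chr10:109518624-109611793 on the minus strand, 81.3 kb upstream of Nav3, with 31 sites, 8 NOVA1 clusters and 31 NOVA2 clusters. A run of 22 sites before Robo1, at chr16:72156472-72202846, held 10 NOVA1 and 24 NOVA2 clusters, and a run of 21 sites before Ralyl, at chr3:13602323-13656539, held 2 and 21. In all 10 runs with the most sites, every NOVA1 cluster overlapped a NOVA2 cluster.

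The nearest gene upstream on the same strand was often not the gene that the clusters lay close to. The 3' end of the gene upstream was nearer than the 5' end of the gene downstream for 218 of 504 NOVA1 clusters (43.3%, 39.0 to 47.6) and 1148 of 2684 NOVA2 clusters (42.8%, 40.9 to 44.7). The median distance to the gene upstream was 186 kb for NOVA1 (quartiles 39.5 and 629) and 265 kb for NOVA2 (80.1 and 684). To the gene downstream it was 201 kb (72.4 and 384) and 212 kb (84.0 and 448). The 5 genes nearest upstream of the most clusters were Lipi with 263, Gm15983 (a lincRNA) with 258, a SNORA71 gene before Robo1 with 143, an Nkain2 gene with 102 and a SNORA40 gene before Nav3 with 94. For each of these, the next protein-coding gene downstream was Robo2, Rbfox1, Robo1, another Nkain2 gene and Nav3, in this order. Distances of 10 to 20 kb to the gene upstream were found for 13.5% of NOVA1 and 7.23% of NOVA2 clusters. Of the clusters, 60.9% of NOVA1 and 72.0% of NOVA2 were more than 50 kb from every gene of their strand.

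At the border of the distance rule, the 9 NOVA1 clusters at 10 to 11 kb had a median of 16 tags and the 16 at 9 to 10 kb had 17.5. For NOVA2, the 36 clusters just inside had a median of 17.5 tags and the 48 just outside had 19.5. On the opposite strand, 34 intergenic NOVA1 clusters (6.75%, 4.87 to 9.28; 4.74% of the whole list) and 85 NOVA2 clusters (3.17%, 2.57 to 3.90; 2.85% of the whole list) overlapped a gene. Strand is read directly in this assay, so these were not assigned to that gene. A start site of an opposite-strand gene lay within 1 kb behind 9 of 2684 NOVA2 clusters and behind 0 of 504 NOVA1 clusters. The count of 0 allows a share of up to 0.595% (3 counts of 504) or, by the Wilson interval used for the other shares, 0.756%. This measure was not computed for the whole lists, so these counts cannot be called low or high.

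To see whether the gaps hold starts of the same genes in a later annotation, promoter sequences of RefSeq (GRCm38.p6) were placed in mm9 by exact match of all 300 nt, and 31808 of 32851 sequences had a single match that also lay on the chromosome and strand of the table. For 379 vM1 genes, a RefSeq start lay more than 10 kb upstream of the vM1 5' end. The space between these starts and the vM1 genes, called RefSeq extension here, made up 15.9 Mb or 0.455% of the 3491 Mb (both strands) that met the distance rule. It held 179 of 504 NOVA1 clusters (35.5%, 31.5 to 39.8) and 1103 of 2684 NOVA2 clusters (41.1%, 39.2 to 43.0). Whether transcripts from these starts are made in this tissue was not tested. The density of NOVA1 clusters was 11.3 per Mb inside and 0.0935 per Mb outside the extensions, and that of NOVA2 clusters was 69.4 and 0.455 per Mb. These clusters lay in the extensions of 54 genes. Without chromosome 16, 20.4% of NOVA1 and 24.8% of NOVA2 intergenic clusters were inside an extension, and with each run or single site counted once the shares were 32.4% and 25.1%.

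All 263 clusters before Robo2 lay inside the Robo2 extension, which began at chr16:75447538. The cluster farthest from the vM1 start was 998 kb upstream of it, and the RefSeq start was 1035 kb upstream. For Rbfox1, 247 of 258 clusters lay inside an extension of 924 kb. All 200 clusters before Lsamp lay inside 1548 kb, and all 140 between the Nkain2 genes lay inside 938 kb. The extension of Snhg14, the long host transcript of small nucleolar RNAs that was paired with the vM1 gene C230091D08Rik, held all 68 clusters of the gap from Snrpn. Celf2, a gene for another splicing regulator, followed with 46 clusters, B3galt1 with 45, Tmem178b (Gm5567 in vM1) with 31, Fgf12 with 28 and Nlgn1, a postsynaptic adhesion gene, with 27. NOVA2 clusters per 100 kb numbered 23.5 in the Robo2 extension and 14.4 in the vM1 gene. The same densities were 22.7 and 24.9 for Rbfox1, 10.5 and 21.3 for Lsamp, 16.8 and 39.7 for Celf2, and 13.6 and 19.7 for Nlgn1. They were 8.91 and 5.55 for B3galt1, 12.6 and 10.9 for Tmem178b, and 8.44 and 9.82 for Fgf12. Nkain2, split over several vM1 genes, and Snhg14, with a vM1 gene of 0.109 kb, were left out of this comparison. NOVA1 clusters per 100 kb numbered 1.93 and 2.69 for Robo2, 4.11 and 6.30 for Rbfox1, and 2.78 and 5.70 for Lsamp.

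The RefSeq starts placed for Robo1 and Dpp10 gave no extension, and the promoter table used here did not list Nav3 and Ralyl. RefSeq genes with no counterpart in vM1 were also examined. Of the clusters outside the extensions, 79 of 325 of NOVA1 (24.3%, 19.96 to 29.3) and 432 of 1581 of NOVA2 (27.3%, 25.2 to 29.6) had the start of such a gene between them and the next vM1 gene upstream. The same held for 29.5% of the space outside the extensions. Of these genes, Gm36751 preceded the most clusters, all 94 before Nav3, from 314 to 702 kb behind its start. It was followed by 1700019L22Rik with 62 clusters (14.7 to 1727 kb), Gm29729 with 32 (35.8 to 169 kb) and Gm20754 with 17 (0.280 to 63.4 kb).

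Most intergenic NOVA1 clusters were shared with the longer NOVA2 list, and most intergenic NOVA2 clusters were not shared. Of the intergenic NOVA1 clusters, 433 of 504 (85.9%, 82.6 to 88.7) had a same-strand NOVA2 cluster overlapping by at least 1 nt, against 80.3% of all NOVA1 clusters. Of the intergenic NOVA2 clusters, 433 of 2684 (16.1%, 14.8 to 17.6) overlapped a NOVA1 cluster, against 22% of all NOVA2 clusters. The kept NOVA2 list was 3.68 times as long as the NOVA1 list and held 4.53 times the tags. With the NOVA2 list reduced to its strongest clusters, as many as in the NOVA1 list, the shares were 69.8% and 47.5%. Shared NOVA2 clusters had a median of 60 tags and unshared ones 15, whereas shared and unshared NOVA1 clusters had 15 and 17. In introns, 95.5% of NOVA1 and 14.1% of NOVA2 clusters were shared, and in 3' UTRs 73.9% and 64.5%. The NOVA2 share of the intergenic clusters lay nearer to that of introns than to that of 3' UTRs. Inside the RefSeq extensions 96.6% of NOVA1 clusters overlapped a NOVA2 cluster and outside them 80%.

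Tag counts were compared at 376 intergenic places where 1 cluster of each list overlapped. On the log2 scale, NOVA1 tags over NOVA2 tags had a median of −1.88 (95% interval −2.00 to −1.79, quartiles −2.57 and −1.23). No scaling for library size was applied. The median over all 6758 places where 1 cluster of each list overlapped was −1.34 (−1.39 to −1.30). A different measure, the log2 ratio of the summed tags of all kept clusters, shared or not, was −2.18. The ratio of intergenic places was near that of introns (−2.04, −2.08 to −2.00, 3452 places) and lower than that of 3' UTRs (−0.40, −0.45 to −0.35, 2146 places) and of clusters within 10 kb downstream of genes (−0.61, −0.72 to −0.49, 373 places). NOVA1 had more tags at 20 of the 376 places (5.32%), at 2.03% of the intron places and at 32.2% of the 3' UTR places. The share was 22.0% within 10 kb downstream of genes and 14.7% over all places of the lists. The 20 places had a median of 23.5 NOVA1 and 16.5 NOVA2 tags and a median GC content of 44.7%, and the other 356 had 15 and 65.5 tags and 36.5% GC.

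The balance of the proteins differed between gaps in these lists. NOVA1 clusters made up 15.8% of all intergenic clusters, 7.60% of those before Robo2 (4.98 to 11.5), 5.13% before Dpp10 (2.01 to 12.5), and 33.8% from Snrpn to C230091D08Rik (23.7 to 45.7). The median log2 tag ratio was −3.78 before Robo2 (17 places, quartiles −4.06 and −2.71) and −2.74 before Rbfox1 (32 places, −3.25 and −2.23). It was −1.73 before Lsamp (38 places, −2.23 and −1.19), −1.90 before Robo1 (25 places, −2.27 and −1.26) and −1.39 in the Snrpn gap (14 places, −1.80 and −0.91). The quartile ranges before Robo2 and Lsamp did not overlap. Since the gaps were picked for their number of clusters and the lists hold no libraries, these differences were not tested.

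**Figure D3:**
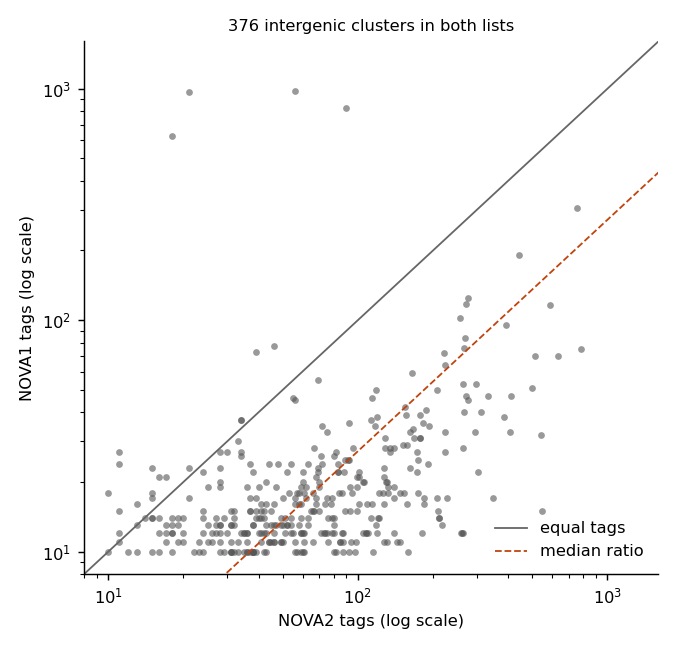
NOVA1 tags against NOVA2 tags (log scales) at the 376 intergenic places where 1 cluster of each list overlapped, with the line of equal tags and the line of the median ratio. Most places lie below the line of equal tags, 20 lie above it, and 4 of these have 623 to 974 NOVA1 tags.

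The NOVA motif was enriched in intergenic clusters of both lists. YCAY starts numbered 46.4 per 1000 positions in NOVA1 clusters and 19.7 in flanks 200 to 500 nt away, a 2.36-fold enrichment (95% interval 2.26 to 2.47). NOVA2 clusters had 46.0 and 19.5, also 2.36-fold (2.32 to 2.41). The fold in introns was 2.80 (2.76 to 2.85) for NOVA1 and 2.41 (2.39 to 2.42) for NOVA2, and in 3' UTRs 1.54 (1.51 to 1.57) and 1.71 (1.68 to 1.74). Over the whole lists the fold was 2.03 (2.01 to 2.05) for NOVA1 and 2.29 (2.28 to 2.31) for NOVA2. At least 1 YCAY was present in 481 of 504 NOVA1 clusters (95.4%) and 2661 of 2684 NOVA2 clusters (99.1%). In the whole lists these shares were 98.1% and 99.3%, so the intergenic NOVA1 share was lower and the NOVA2 share nearly equal. The tetramer with the highest ratio to the flanks was UCAU, with a log2 ratio of 1.66 in both lists, followed by CAUC with 1.51 in NOVA1 and 1.45 in NOVA2. Next in the NOVA1 list was CGCG with 1.49, from 22 occurrences, and next in the NOVA2 list was CAUU with 1.30.

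**Figure D4:**
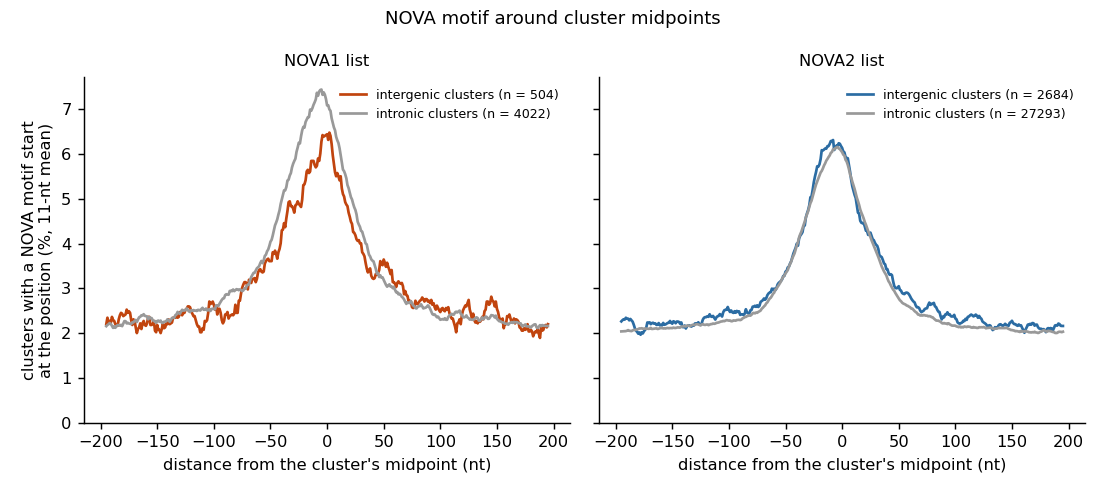
Share of clusters with a YCAY start at each position within 200 nt of the cluster midpoint (11-nt running mean), for the NOVA1 list (504 intergenic and 4022 intronic clusters) and the NOVA2 list (2684 and 27293). The curves rise toward the midpoint in all 4 sets, and the intergenic NOVA1 curve peaks below the intronic one.

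The enrichment differed between groups of intergenic clusters. It was 2.55-fold (2.38 to 2.74) for NOVA1 clusters inside the RefSeq extensions and 2.24-fold (2.11 to 2.37) outside. For NOVA2 the order was the opposite, 2.23 (2.17 to 2.30) inside and 2.47 (2.41 to 2.54) outside. NOVA1 clusters in runs had 2.38-fold (2.27 to 2.51) and those not in runs 2.22-fold (2.02 to 2.44) enrichment. NOVA2 clusters in runs had 2.18-fold (2.12 to 2.23) and those not in runs 2.76-fold (2.67 to 2.85) enrichment. These folds are per position, and counts per cluster gave another order for NOVA2. The median YCAY per NOVA2 cluster was 5 in runs and 4 not in runs, and 5 inside and 4 outside the extensions. For NOVA1 these medians were 5 and 3, and 5 and 4. NOVA1 clusters that overlapped a NOVA2 cluster had 2.49-fold (2.38 to 2.61) and the 71 that did not had 1.30-fold (1.10 to 1.54) enrichment. NOVA2 clusters without NOVA1 overlap kept 2.35-fold (2.30 to 2.40).

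The NOVA2 cluster of most tags, chr16:77264010-77264759 on the plus strand, 64.7 kb upstream of 2810055G20Rik, had 1254 tags and 93 YCAY in 750 nt. The Rbfox1 cluster with 636 tags held 44 YCAY and lay 860 kb upstream of the vM1 start. The cluster with 783 tags, 15.2 kb upstream of the microRNA gene Mir181a-1, held 6 and overlapped a NOVA1 cluster of 75 tags. A cluster of 753 NOVA2 and 305 NOVA1 tags lay 15.8 kb beyond the 3' end of Ntrk3, the gene of a neurotrophin receptor, and held 19. The NOVA2 clusters of most tags without NOVA1 overlap had 198, 174 and 146 tags upstream of Robo2, 189 upstream of Ralyl and 148 upstream of B3galt1, and held 9, 8, 14, 9 and 11 YCAY. All 160 intergenic NOVA2 clusters with 100 or more tags had at least 1 YCAY, with a median of 9 and a 2.41-fold enrichment (2.26 to 2.57).

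The 5 highest NOVA1 clusters had 1032, 974, 971, 823 and 623 tags and held 3, 0, 0, 3 and 2 YCAY. All 5 overlapped a NOVA2 cluster, and the 4 that overlapped a single one met 56, 21, 90 and 18 NOVA2 tags. The highest was at chr3:5860580-5860827 on the plus strand, 445 kb downstream of Zfhx4, with a GC content of 66.9%. These clusters were not compared with a reference sequence of ribosomal RNA, and the part of reads from such abundant RNA in their tags was not tested. They were compared with the left-out clusters of the chromosome 17 window. Of these 5, only the cluster of 823 tags matched, as given below. The 5 highest without NOVA2 overlap had 333, 281, 215, 141 and 122 tags and held 1, 1, 1, 2 and 3 YCAY, and 4 of them had 6 to 19 further copies in the genome. The 16 intergenic NOVA1 clusters with 100 or more tags together had 1.22-fold enrichment (0.921 to 1.61), and the 488 with 10 to 99 tags had 2.43-fold (2.32 to 2.54).

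Further copies of the cluster sequence in the genome (90% identity or more, over 50% of its length or more) were found for 96 NOVA1 clusters (19.0%, 15.9 to 22.7) and 436 NOVA2 clusters (16.2%, 14.9 to 17.7). Only intergenic clusters were searched for copies. Whether these shares differ from those of the whole lists is therefore not known here. The share was 42.3% (31.5 to 53.8) for the 71 unshared and 15.2% (12.2 to 18.9) for the 433 shared NOVA1 clusters. It was 8 of 16 for NOVA1 and 14 of 160 for NOVA2 clusters with 100 or more tags. Inside the RefSeq extensions it was 7.82% for NOVA1 and 9.34% for NOVA2, and outside 25.2% and 21.1%. The 41 NOVA1 clusters with neither overlap nor copies had 1.42-fold motif enrichment (1.15 to 1.74). The part of copied sequence in the NOVA1 tag counts was not tested.

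The left-out window of chromosome 17 held 14 NOVA1 clusters with 12922 tags and 7 NOVA2 clusters with 1588 tags. The intergenic NOVA1 cluster with 823 tags, chr6:3151428-3151634, matched a left-out NOVA1 cluster of 9547 tags with 95.7% identity over its whole length. The NOVA2 cluster of 90 tags at the same place matched it with 95.4%, and a NOVA1 cluster of 26 tags at chr10:82418006-82418113 with 95.4%. A NOVA1 cluster of 11 tags at chr6:3150765-3150865 matched another left-out cluster, of 2250 tags, with 98.96% identity over 95.05% of its length. These 4 were the only intergenic clusters with 90% identity over 50% of their length to left-out clusters of that window. Only the sequences of the left-out clusters were searched, so matches to the rest of the window could not be found.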

How the data were processed

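Cortex of wild-type embryos (day 18.5) gave 3 HITS-CLIP libraries for NOVA1 and 3 for NOVA2. The authors aligned reads to mm9 with Novoalign (version not given in the sources used here), collapsed PCR duplicates, grouped tags into clusters and pooled the libraries. The deposited lists hold a tag count per cluster, not scaled to library size, for clusters with at least 10 tags and tags in at least 2 libraries. The study describes the threshold both as tags and as peak height, so which of these the count is stays unsettled. The lists hold no depth per library.

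Clusters were compared with NCBIM37 and GENCODE vM1 (37310 genes). The members, lists and tests were chosen with earlier results of these data known. Other classes were taken by the annotation that covered most of a cluster. Clusters overlapped when they shared at least 1 nt on the same strand. Runs had 3 or more sites joined over at most 10 kb. YCAY was counted in clusters and in flanks 200 to 500 nt from either end, on the cluster strand. Named were the 5 highest clusters per list, the 5 highest without overlap, the 10 runs with the most sites, the 5 of highest summed tags and the 5 genes upstream of the most clusters. The gaps, RefSeq extensions and other genes were added after the data were seen. For chromosome 18 and for some named clusters no sequence is printed, and 1 named NOVA2 cluster is not reported here.

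Shares carry Wilson and folds exact conditional 95% intervals, and medians carry order-statistic intervals. No p-value was computed, because clusters are not replicates. Copies were sought with BLAST 2.17.0. Other steps used Python 3.11.15, pandas 2.3.3, numpy 2.4.6, scipy 1.17.1, pysam 0.24.0 and samtools 1.23.1. The functions were tested on simulated data.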

Additional observations from a re-analysis of the deposited data

How the results depend on the processing

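The lists limit every value here, since depth and the fixed threshold of 10 tags set how many clusters a list holds, and single libraries were not analysed here. No paired analysis was possible because the replicates of each protein were pooled in 1 column, and for the same reason no replicate could be left out. Of 61 values recomputed under alternatives chosen with the design and 8 under alternatives added after seeing the data (those on RefSeq extensions), 29 stayed within the interval or, for counts, 1.5 times of the reported value. The order of the proteins was not the same in every setting. The share in runs was higher for NOVA1 except with a gap of 50 kb, and the share inside RefSeq extensions was higher for NOVA2 except per run (32.4% for NOVA1). The motif fold and the share closer to the gene upstream, nearly equal in both lists, also changed order. At 20 or more tags there were 171 NOVA1 and 1194 NOVA2 clusters and 119 runs, and more than 50 kb from genes 307 NOVA1 clusters. The NOVA1 overlap share was 89.1% within 1 kb, 81.3% at 20 or more tags, 69.8% with the reduced NOVA2 list, 89.6% beyond 50 kb and 89.95% without copied clusters. The NOVA2 share was 23.96%, 12.1%, 47.5% and 14.5% in the first 4 of these settings. The motif fold was 2.52 (NOVA1) and 2.49 (NOVA2) with flanks of 500 to 1000 nt, 2.58 for NOVA1 beyond 50 kb and 2.32 for NOVA2 at 20 or more tags. Shares in runs, for NOVA1 and NOVA2, were 58.5% and 50.4% with a gap of 5 kb, 74.6% and 72.0% with 20 kb, 79.4% and 80.1% with 50 kb, and 56.7% and 51.9% at 20 or more tags, and a gap of 50 kb left 148 runs. The share closer to the gene upstream was 34.2% (NOVA1) and 38.3% (NOVA2) beyond 50 kb, and for NOVA2 39.9% with protein-coding genes and 45.4% per run. Copies were found for 9.72% and 7.45% at 95% identity over 80% and for 22.8% and 13.1% at 20 or more tags. The share inside RefSeq extensions was 20.4% and 24.8% without chromosome 16, 40.4% and 45.4% beyond 50 kb, and for NOVA2 45.9% at 20 or more tags and 25.1% per run. The cause of these shifts was not tested.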
